A study of Mus musculus with 9 samples.

Results

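The 9 genes described here mark successive steps of the osteoblast lineage: the early regulators Dlx5, Dlx6 and Sp7, the mineralizing matrix genes Ibsp and Alpl, the hormone receptor gene Pth1r, and the osteocyte genes Phex, Dmp1 and Sost. They were taken by symbol, as the rows of the array table that pair with exactly 1 gene symbol. Each gene had 1 such row, a transcript cluster (the set of probes that reads a gene), among 21789 rows with 1 symbol that stand for 19938 genes. RNA from bone marrow of C57Bl/6J mice was hybridised to 9 arrays of the Affymetrix type Mouse Gene ST 1.0, and values are log2 signals.

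The 4 groups were CD45-Lin-CD54+BP1+ stromal cells without YFP from IL7-Cre Transgenic/Rosa-eYFP hetero mice (YFP-negative, 1 array of 2300 cells), the YFP-positive cells of that gate from mice of that genotype (3 arrays), cells of the same gate from wild-type mice (wild type, 3 arrays), and unsorted total bone marrow from wild-type mice (2 arrays of 10 ng of RNA). Sorted cells came from mice of 6 to 12 weeks, at 1800 to 10000 cells a sample. CD45 marks blood cells, CD54 is the adhesion molecule encoded by Icam1, and BP1 is the peptidase encoded by Enpep. YFP stays on once the Il7-driven Cre has been active, so it reports present or past Cre activity, and YFP-negative cells are cells of the gate in which the reporter was not seen. YFP-positive and YFP-negative cells both carry the transgene, whereas wild-type cells do not, so genotype and YFP status change together between YFP-positive and wild-type cells.

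Osteoblasts arise from marrow stromal progenitors, lay down a collagen matrix and mineralize it, and some become buried in it as osteocytes. Runx2 and then Sp7 (osterix) are transcription factors required for osteoblast formation, and the paired homeobox genes Dlx5 and Dlx6 act in the same programme. Ibsp encodes bone sialoprotein, which binds mineral, and Alpl encodes the alkaline phosphatase that removes the mineralization inhibitor pyrophosphate. Pth1r encodes the receptor for parathyroid hormone. Osteocytes express Phex, a peptidase-family gene that restrains the phosphate hormone FGF23, Dmp1, which encodes a matrix phosphoprotein, and Sost, which encodes the Wnt antagonist sclerostin.

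Ibsp and Dmp1 are neighbours in a row of bone and tooth matrix genes on chromosome 5, in the order Dspp, Dmp1, Ibsp, Mepe and Spp1. Ibsp was far higher in sorted cells than in total marrow while Dmp1 stayed at low signal, so their start regions are shown together with those of the osteocyte genes Sost and Phex, which also differed in their response. The sequences are RefSeq windows of the GRCm38.p6 build, from 250 bases before to 50 bases after a gene's start, 5′ to 3′ on the gene's strand. The Ibsp window is chr5:104299037-104299336 (plus strand), the Dmp1 window, the second of 2 for that gene, is chr5:104202367-104202666 (plus), the Sost window is chr11:101966966-101967265 (minus) and the Phex window is chrX:157415237-157415536 (minus). Capitals mark matches, on either strand, to any of 5 motifs. These were the Runx core motif TGTGGT, the homeodomain motif TAATTA, the box named CCAAT, the TATA box motif TATAAA and the GC box motif GGGCGG.
Ibsp: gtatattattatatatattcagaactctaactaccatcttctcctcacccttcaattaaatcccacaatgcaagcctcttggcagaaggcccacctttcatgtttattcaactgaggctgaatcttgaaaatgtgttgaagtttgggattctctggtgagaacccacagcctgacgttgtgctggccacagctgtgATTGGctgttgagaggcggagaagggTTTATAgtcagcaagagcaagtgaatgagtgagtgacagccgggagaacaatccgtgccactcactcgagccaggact
Dmp1: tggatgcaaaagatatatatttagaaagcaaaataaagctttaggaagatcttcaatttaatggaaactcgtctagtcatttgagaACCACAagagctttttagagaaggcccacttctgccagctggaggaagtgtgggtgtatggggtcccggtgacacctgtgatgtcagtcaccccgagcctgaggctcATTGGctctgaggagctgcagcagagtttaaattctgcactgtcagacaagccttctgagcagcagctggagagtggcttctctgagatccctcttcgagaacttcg
Sost: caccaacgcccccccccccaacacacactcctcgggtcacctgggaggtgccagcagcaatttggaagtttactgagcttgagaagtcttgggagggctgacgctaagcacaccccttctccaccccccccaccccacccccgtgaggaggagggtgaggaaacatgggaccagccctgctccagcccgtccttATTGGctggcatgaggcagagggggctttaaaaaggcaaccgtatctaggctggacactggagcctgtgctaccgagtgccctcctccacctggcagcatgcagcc
Phex: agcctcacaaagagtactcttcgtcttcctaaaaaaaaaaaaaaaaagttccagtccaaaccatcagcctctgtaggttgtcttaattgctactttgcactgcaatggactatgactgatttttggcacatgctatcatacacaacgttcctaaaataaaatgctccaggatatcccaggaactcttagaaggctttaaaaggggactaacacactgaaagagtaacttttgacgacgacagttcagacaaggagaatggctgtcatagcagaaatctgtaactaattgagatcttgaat

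An inverted CCAAT box, read as ATTGG, began at position -54 of Ibsp, -57 of Dmp1 and -56 of Sost, counted from the annotated start, and the Phex window held none of the 5 motifs. Ibsp also held an inverted TATA box at -28, and Dmp1 an inverted Runx core at -164. Of 32851 windows of the same length in the RefSeq table, 37.4% held a CCAAT box, 13.6% a TATA box, 16.8% a Runx core, 35.7% a GC box and 5.29% the homeodomain motif. Windows were present for 6 of the 9 genes, 10 windows in all. The other 6 windows belong to Alpl, Pth1r and the first Dmp1 window, where the inverted CCAAT box began at -101. GC boxes were found in 1 of the Alpl windows and 2 of the 3 Pth1r windows. These are letter matches only, and binding was not measured.

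The sorted arrays carried stromal markers. All 8 reticular stroma markers (such as Lepr and Cxcl12) were called higher than in total marrow in each sorted group, and 6 of 7 haematopoietic markers were called lower. The mean log2 level over the 7 haematopoietic markers after cyclic loess normalization, a rescaling of all 9 arrays described below, was 4.61 in the YFP-negative array, 4.65 to 6.29 in YFP-positive arrays and 3.996 to 4.71 in wild-type arrays, against 10.07 and 10.09 in total marrow. The osteoclast phosphatase gene Acp5 was deposited at 3.97 to 4.61 in YFP-positive and 4.10 to 4.42 in wild-type arrays, against 7.55 and 7.65 in total marrow. Of 10 osteoclast markers, Acp5 and 1 other were called lower in each sorted group. Ctsk was called higher in each, and the rest were not called. The deposited median signal was 3.46 in the YFP-negative array and 4.51 to 4.60 in the other 8. Comparisons with the YFP-negative array therefore use cyclic loess values, on which its median is 4.57 and that of the others 4.51 to 4.54, and the remaining comparisons use deposited values.

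2 arrays stood apart in some sex-linked transcripts. As deposited, Xist, the RNA that coats the inactive X chromosome, was at 4.38 in the YFP-negative array and 4.12 in YFP-positive replicate 1, against 9.14 to 9.48 in the other 5 sorted arrays and 7.93 and 8.71 in total marrow. After loess the Y-linked Kdm5d was at 5.18 and 5.65 on those 2 arrays, against 3.07 to 3.59 on the other 7. The Y-linked Eif2s3y was at 3.53 and 4.76 as deposited, against 2.47 to 3.13 on the other 7. The Y-linked Uty did not set the YFP-negative array apart as deposited. It was at 2.60 there and 4.25 in YFP-positive replicate 1, against 2.58 to 3.24 on the other 7. After loess Uty was at 3.18 and 4.20, against 2.63 to 3.02. YFP-positive replicate 1 also held the myeloid lysozyme gene Lyz2 at 8.34, against 3.67 and 4.55 in the other YFP-positive arrays. Other myeloid genes were not confined to that array. As deposited, Mpo was at 7.80, 8.01 and 6.06 in YFP-positive arrays, against 4.14 to 4.76 in wild-type arrays. S100a8 was at 11.01, 9.21 and 4.36 in YFP-positive and 9.29, 5.96 and 4.04 in wild-type arrays. Values that rest on the 2 arrays with low Xist are given below with this in view. The part of mouse sex or myeloid RNA in any difference was not tested.

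**Figure D1:**
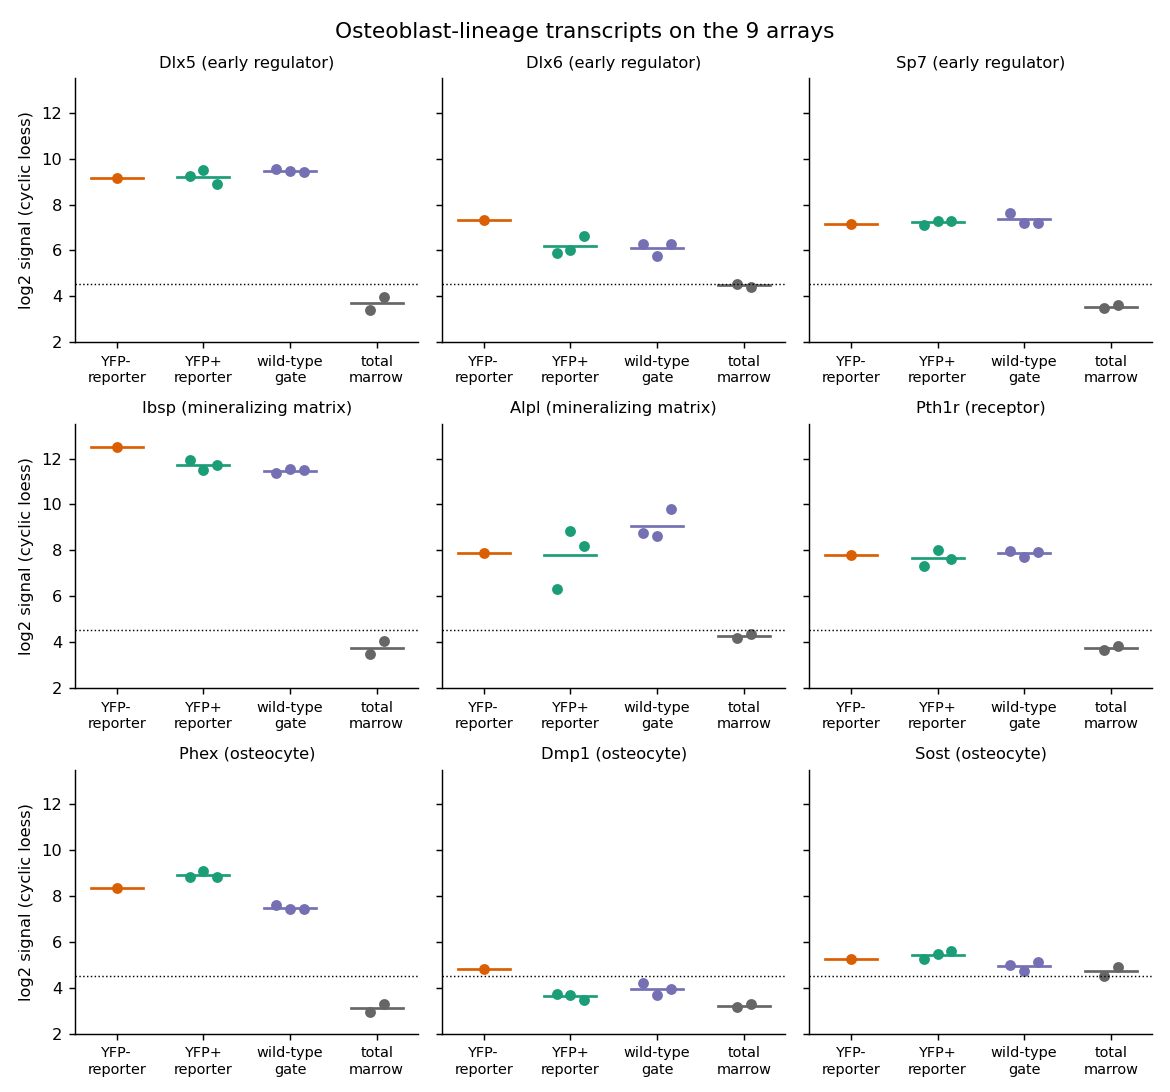
The log2 signal after cyclic loess normalization (vertical axis) of each of the 9 genes on each array, by group (YFP-negative, YFP-positive, wild-type gate, total marrow). Points are arrays, horizontal bars are group means, and the dotted line is the median of all values, 4.53. Dlx5, Sp7, Ibsp, Alpl, Pth1r and Phex stood above that line in all 7 sorted arrays and below it in both total marrow arrays. Dmp1 was above it only in the YFP-negative array (4.82).

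Sorted stroma was set against total marrow to ask which of the bone genes the gated cells carry. The early regulators, the matrix genes, the receptor gene and Phex were all higher in each sorted group, by 1.52 (Dlx6 in YFP-positive cells) or more on the log2 scale. Sost was called higher only in YFP-positive cells among the 3 groups, and Dmp1 only in wild-type cells and the YFP-negative array. In YFP-positive cells 8 of 9 genes were called higher than in total marrow (limma, Benjamini-Hochberg adjusted p under 0.05 over all 21789 rows), where 11.0% of all rows were called higher. In wild-type cells 8 of 9 were called higher, where the background was 10.4%. In the YFP-negative array 8 of 9 were called higher, where it was 13.0%. The gene not called was Dmp1 in YFP-positive cells and Sost in the other 2 groups. The median change of the 9 genes was 3.41 for YFP-positive and 4.06 for wild-type cells, and 3.61 for the YFP-negative array, against medians of 0.09, 0.0001 and -0.004 over all rows. The 3 comparisons share the total marrow arrays. In such bulk samples, fewer cells of a type and less RNA per cell cannot be told apart.

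All 9 genes had YFP-positive arrays wholly above the total marrow arrays, and 8 of 9, all but Sost, had wild-type arrays wholly above them. Of all rows, 32.7% and 25.5% did so in these comparisons. The median signal of the whole table was 4.43 on deposited values and 4.53 after loess. Where the mean of total marrow stood under it and that of the sorted group above it, a change may be a lower bound. These positions of the means were seen for Dlx5, Sp7, Ibsp, Pth1r and Phex on deposited values. They were also seen for the YFP-negative array after loess for each of the 9 genes except Sost. Single total marrow arrays above the median were replicate 2 for Ibsp as deposited (4.64) and replicate 1 for Dlx6 after loess (4.55). The loess changes of the YFP-negative array are not read as lower bounds, because their size depends on the scaling. As deposited they were 0.80 for Dmp1, 1.38 for Dlx6 and 7.48 for Ibsp, against 1.60, 2.84 and 8.74 after loess. Deposited Dmp1 values lay under the median of the whole table in every group. The YFP-negative value, 3.98, was above that array's own deposited median of 3.46.

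Dlx5, a homeobox gene of early osteoblast differentiation, stood at 9.42, 9.58 and 8.76 in YFP-positive arrays and at 9.81, 9.89 and 9.67 in wild-type arrays, against 3.97 and 4.42 in total marrow. Every sorted array lay above both total marrow arrays. The change was 5.06 ± 0.26 (SE, adjusted p = 4.0e-06 in limma) in YFP-positive and 5.59 ± 0.26 (SE, adjusted p = 2.2e-06) in wild-type cells. The YFP-negative array held it at 8.27 as deposited and 9.15 after loess, 5.46 above total marrow on the loess scale (adjusted p = 1.27e-05).

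Dlx6, its neighbour on chromosome 6, changed less. It stood at 6.01, 6.09 and 6.58 in YFP-positive and 6.44, 6.02 and 6.44 in wild-type arrays, against 4.81 and 4.60 in total marrow. The changes were 1.52 ± 0.22 (SE, adjusted p = 0.0013 in limma) in YFP-positive and 1.60 ± 0.22 (SE, adjusted p = 0.0011) in wild-type cells. The antisense gene Dlx6os1 overlaps Dlx6 in the RefSeq annotation, and the strand its probes read was not examined. In the YFP-negative array Dlx6 was at 6.08 as deposited and 7.31 after loess, a change of 2.84 against total marrow (adjusted p = 8.0e-04).

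Other Dlx genes were nearer to total marrow. YFP-positive arrays had Dlx2 higher by 0.59 (limma adjusted p = 0.0062) and Dlx3 by 0.49 (adjusted p = 0.048), and Dlx1 and Dlx4 were not called. In wild-type cells none of these 4 was called. The adjusted p in limma was 0.17 for Dlx4, 0.42 for Dlx3, 0.52 for Dlx2 and 0.96 for Dlx1. The YFP-negative array differed from total marrow after loess by 1.04 for Dlx3 and 0.93 for Dlx4. As deposited these were -0.12 and -0.34, so their direction depends on the scaling. Dlx1 and Dlx2 were at -0.43 and -0.23 after loess, and at -1.15 and -1.16 as deposited.

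Sp7, the osterix gene, had an SD of 0.09 among YFP-positive and 0.21 among wild-type arrays. It stood at 7.23, 7.38 and 7.21 in YFP-positive arrays and 7.84, 7.53 and 7.45 in wild-type arrays, against 3.85 and 3.88 in total marrow. The change was 3.41 ± 0.14 (SE, adjusted p = 1.5e-06 in limma) in YFP-positive and 3.74 ± 0.14 (SE, adjusted p = 9.0e-07) in wild-type cells. In the YFP-negative array it was at 6.02 as deposited and 7.17 after loess, where the change against total marrow was 3.61 (adjusted p = 1.97e-05).

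Ibsp showed the highest change of the 9 genes in all 3 sorted groups. It stood at 12.07, 11.55 and 11.58 in YFP-positive arrays and 11.67, 11.94 and 11.72 in wild-type arrays, against 4.16 and 4.64 in total marrow. The ranges of the 2 sorted groups overlapped. The changes, 7.33 ± 0.21 (SE, adjusted p = 3.0e-07 in limma) and 7.38 ± 0.21 (SE, adjusted p = 2.6e-07), equal fold changes of 161 and 167. The YFP-negative array held Ibsp at 11.88 as deposited and 12.50 after loess, where the change against total marrow was 8.74 (adjusted p = 1.3e-06).

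Dspp and Mepe, of the same chromosomal row, showed no such step. Dspp, the dentin sialophosphoprotein gene, stood at 3.83 to 4.08 in YFP-positive and 3.57 to 3.67 in wild-type arrays, against 3.90 and 4.04 in total marrow. Mepe, which encodes a matrix phosphoglycoprotein of osteocytes, was at 2.66 to 3.39 in YFP-positive and 2.69 to 2.76 in wild-type arrays, against 2.76 and 2.79 in total marrow. Neither gene was called in YFP-positive or wild-type cells against total marrow. Spp1 (osteopontin), the last of the row, had no row with a single symbol and was not analysed here.

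Alpl varied most among replicates. YFP-positive arrays held it at 6.48, 8.95 and 8.08 and wild-type arrays at 8.99, 9.02 and 10.08, against 4.66 and 4.75 in total marrow. Every sorted array was above total marrow, but YFP-positive replicate 1, one of the 2 arrays with low Xist, was the lowest of all 7 sorted arrays. The change was 3.13 ± 0.67 (SE, adjusted p = 0.010 in limma) in YFP-positive and 4.65 ± 0.67 (SE, adjusted p = 0.0015) in wild-type cells. Without total marrow replicate 1 the YFP-positive change was 3.08 (adjusted p = 0.072), and without replicate 2 it was 3.17 (adjusted p = 0.060). The YFP-negative array, the other with low Xist, held Alpl at 6.92 as deposited and 7.88 after loess. Its change of 3.61 against total marrow (limma adjusted p = 0.029) became 2.21 (adjusted p = 0.056) as deposited, 3.46 (adjusted p = 0.11) without total marrow replicate 1 and 3.66 (adjusted p = 0.091) without replicate 2.

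Pth1r stood at 7.48, 8.14 and 7.53 in YFP-positive arrays and 8.20, 8.09 and 8.19 in wild-type arrays, against 4.06 and 4.14 in total marrow. The receptor gene was thus 3.61 ± 0.20 (SE, adjusted p = 6.9e-06 in limma) and 4.06 ± 0.20 (SE, adjusted p = 3.4e-06) higher. In the YFP-negative array it was at 6.74 as deposited and 7.80 after loess, 4.07 above total marrow (adjusted p = 4.2e-05).

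The osteocyte genes divided. Phex was high, at 8.98, 9.20 and 8.73 in YFP-positive arrays and 7.85, 7.82 and 7.73 in wild-type arrays, against 3.40 and 3.65 in total marrow. Its changes were 5.44 ± 0.16 (SE, adjusted p = 3.1e-07 in limma) for YFP-positive and 4.27 ± 0.16 (SE, adjusted p = 7.7e-07) for wild-type cells, and 5.23 (adjusted p = 3.0e-06) in the YFP-negative array, where it stood at 7.34 as deposited and 8.36 after loess.

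Dmp1 was at 3.78, 3.74 and 3.66 in YFP-positive and 4.21, 3.62 and 3.90 in wild-type arrays, against 3.11 and 3.25 in total marrow. Every one of these values lies below the median of all values on the arrays, 4.43, so the size of a change is not resolved. The differences were 0.54 ± 0.17 (SE, adjusted p = 0.052 in limma) for YFP-positive and 0.73 ± 0.17 (SE, adjusted p = 0.019) for wild-type cells. The wild-type call was lost without wild-type replicate 3 (adjusted p = 0.051), total marrow replicate 1 (0.14) or total marrow replicate 2 (0.073). The YFP-positive difference was called without wild-type replicate 1 (adjusted p = 0.028) or 2 (0.032), which enter the shared estimate of the spread. In the YFP-negative array Dmp1 was at 3.98 as deposited and 4.82 after loess, where it exceeded total marrow by 1.60 (adjusted p = 0.0020).

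Sost, the sclerostin gene, was at 5.30, 5.52 and 5.64 in YFP-positive and 5.09, 4.84 and 5.19 in wild-type arrays, against 4.63 and 4.96 in total marrow. YFP-positive arrays lay above total marrow, and wild-type arrays overlapped it. The difference was 0.69 ± 0.17 (SE, adjusted p = 0.019 in limma) in YFP-positive cells and 0.24 ± 0.17 (SE, adjusted p = 0.42) in wild-type cells, and the YFP-positive call was lost without total marrow replicate 1 (0.52, adjusted p = 0.16). After loess the YFP-negative array was 0.52 above total marrow (adjusted p = 0.17), and as deposited the difference was -0.80 (adjusted p = 0.016), a call in the other direction.

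**Figure D2:**
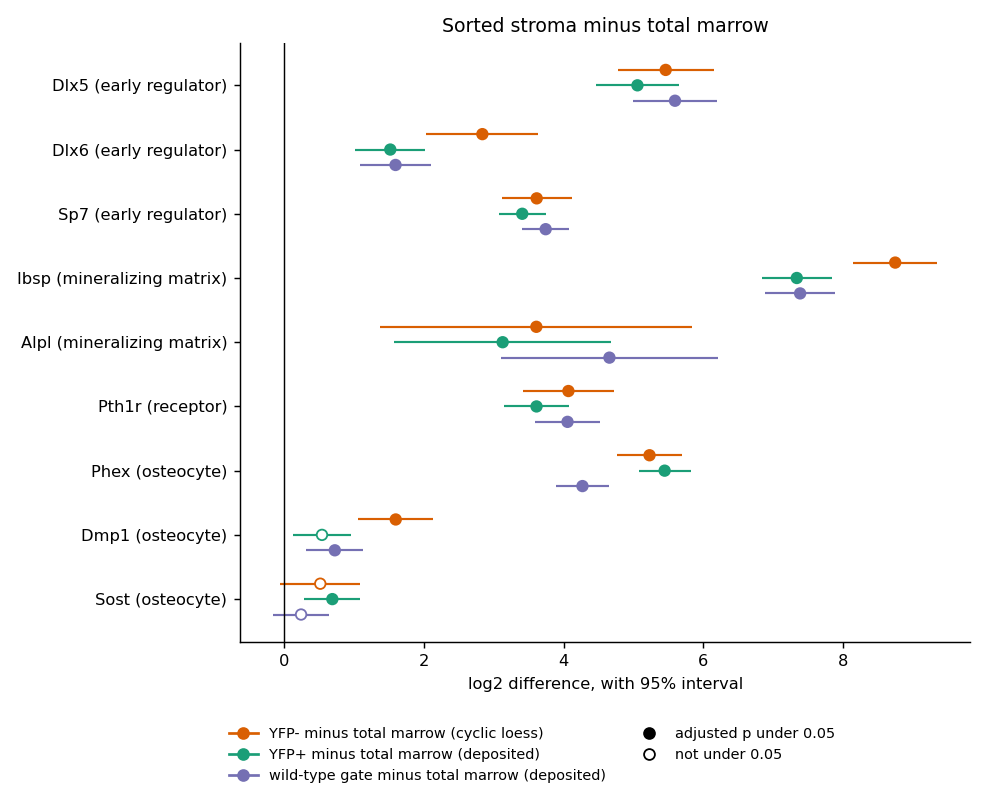
Change of each gene against total marrow in log2 units (horizontal axis) with its 95% interval, for the YFP-negative array (cyclic loess), YFP-positive cells and wild-type cells (deposited values). Filled points had an adjusted p under 0.05. Ibsp lies farthest right at 7.33 to 8.74, and in each group Dmp1 and Sost lie nearest 0, between 0.24 and 1.60.

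Other genes of these pathways were counted against total marrow in the same fits. Of 9 measured further osteoblast transcription factors, YFP-positive cells had 5 called higher and 2 lower, wild-type cells 4 and 2, and the YFP-negative array 5 and 2. Of all rows, 18.5%, 13.9% and 13.2% were called lower in these comparisons. Snai2, a zinc finger repressor of mesenchymal cells, was 6.63 ± 0.13 (SE) higher in YFP-positive cells, and Twist1, an inhibitor of Runx2 function, was 2.56 ± 0.25 (SE) higher. Zfp521, another antagonist of Runx2, was 2.36 higher and Msx1 1.08 higher. Cbfb, the Runx partner, fell by 1.56, and Nfatc1, a transcription factor also of osteoclasts, fell by 2.45. Runx2 itself had no row with a single symbol and was not analysed here.

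Of 13 measured further matrix and mineralization genes, YFP-positive cells had 9 called higher and 2 lower, wild-type cells 8 and 1, and the YFP-negative array 8 and 1. Mgp, an inhibitor of mineralization, was 5.95 ± 0.42 (SE) higher in YFP-positive cells. The collagen chaperone gene Serpinh1 was 4.38 higher, the collagen-binding Sparc 3.40 higher and the collagen chain gene Col1a2 3.39 higher. Col1a1 stood at 7.36, 7.72 and 7.23 in YFP-positive and 8.27, 8.13 and 8.36 in wild-type arrays, against 6.66 and 6.74 in total marrow, with changes of 0.73 (limma adjusted p = 0.013) and 1.55 (adjusted p = 2.9e-04). Phospho1, a phosphatase of matrix vesicles, had a change of -1.73 in YFP-positive cells and of -1.90 in the wild type, and Slc20a1, a phosphate transporter gene, had -1.66 in YFP-positive cells. Ifitm5, an osteoblast membrane gene, was not called in any sorted group (adjusted p of 0.33 in YFP-positive, 0.63 in wild-type and 0.22 in YFP-negative cells). Bglap, the osteocalcin gene, had no row with a single symbol and was not analysed here.

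Of 10 further genes used as osteocyte markers, 2 were called higher and 2 lower in each sorted group. Tnfsf11, which encodes the osteoclast factor RANKL, was 3.70 ± 0.24 (SE) higher in YFP-positive and 3.69 ± 0.24 (SE) higher in wild-type cells. The other gene called higher was Fgf23 in YFP-positive cells (0.56, with group means of 4.38 against 3.82, both under the table's median) and the RANKL decoy gene Tnfrsf11b in wild-type cells (0.78) and the YFP-negative array (1.10, but -0.0599 with an adjusted p of 0.85 as deposited). Capg and Cd44, which blood cells also express, had changes of -5.21 and -2.57 in YFP-positive cells. Mepe, Pdpn, Fam20c and Dkk1 had group means of 2.95 to 4.24 in YFP-positive cells and were not called. Irx5 stood at 5.71, 6.10 and 7.27 in YFP-positive cells, against 4.95 and 5.20 in total marrow, and was not called (adjusted p = 0.054).

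Of 10 measured genes of parathyroid hormone receptor signalling, YFP-positive cells had 2 called higher and 2 lower, wild-type cells 1 and 2, and the YFP-negative array 1 and 1. Ramp2, whose protein binds the receptor among others, was 3.13 ± 0.17 (SE) higher in YFP-positive and 3.38 ± 0.17 (SE) higher in wild-type cells. The phosphodiesterase gene Pde4d was 0.64 higher in YFP-positive cells. The arrestin gene Arrb2 fell by 4.16 and Crem, a cAMP-responsive gene, fell by 0.64 in YFP-positive cells. The ligand gene Pth was near the floor, at 3.14 in YFP-positive cells, against 3.05 in total marrow.

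Sclerostin acts on the Wnt co-receptors of the LRP family. Of 8 genes for co-receptors, sclerostin relatives and Wnt readouts, 4 were called higher and 1 lower in both YFP-positive and wild-type cells, and 3 and 0 in the YFP-negative array. Lrp4, which anchors sclerostin, was 1.96 higher in YFP-positive cells, Lrp5 1.04 higher and Lrp6 2.05 higher. The secreted Wnt antagonist gene Sfrp1 was 4.36 ± 0.33 (SE) higher in YFP-positive and 5.46 ± 0.33 (SE) higher in wild-type cells. Lef1, a Wnt-responsive transcription factor also used by lymphocytes, fell by 1.84 in YFP-positive cells and fell by 2.02 in wild-type cells.

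Markers of other marrow cell types give the setting of these values. Of 10 osteoclast markers, Ctsk was called higher (2.95 in YFP-positive cells, 4.23 in the wild type), and Acp5 and Mmp9 lower. In the YFP-negative array Ctsk was called higher (4.09), and Acp5 and Ocstamp lower. Of 10 chondrocyte markers, 2 were called higher in YFP-positive and wild-type cells (Sox9 and Comp) and 5 in the YFP-negative array. The YFP-negative array held Chad, a cartilage matrix gene, at 9.53 as deposited. It stood at 4.13, 4.03 and 7.11 in YFP-positive and 4.34, 6.83 and 4.74 in wild-type arrays, against 4.26 and 4.55 in total marrow. On loess values the change of the YFP-negative array against total marrow was 6.55 ± 1.43 (SE, limma adjusted p = 0.014). Of 7 adipocyte markers 4 were called higher in each sorted group, led by Adipoq (7.08 in YFP-positive cells).

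**Figure D3:**
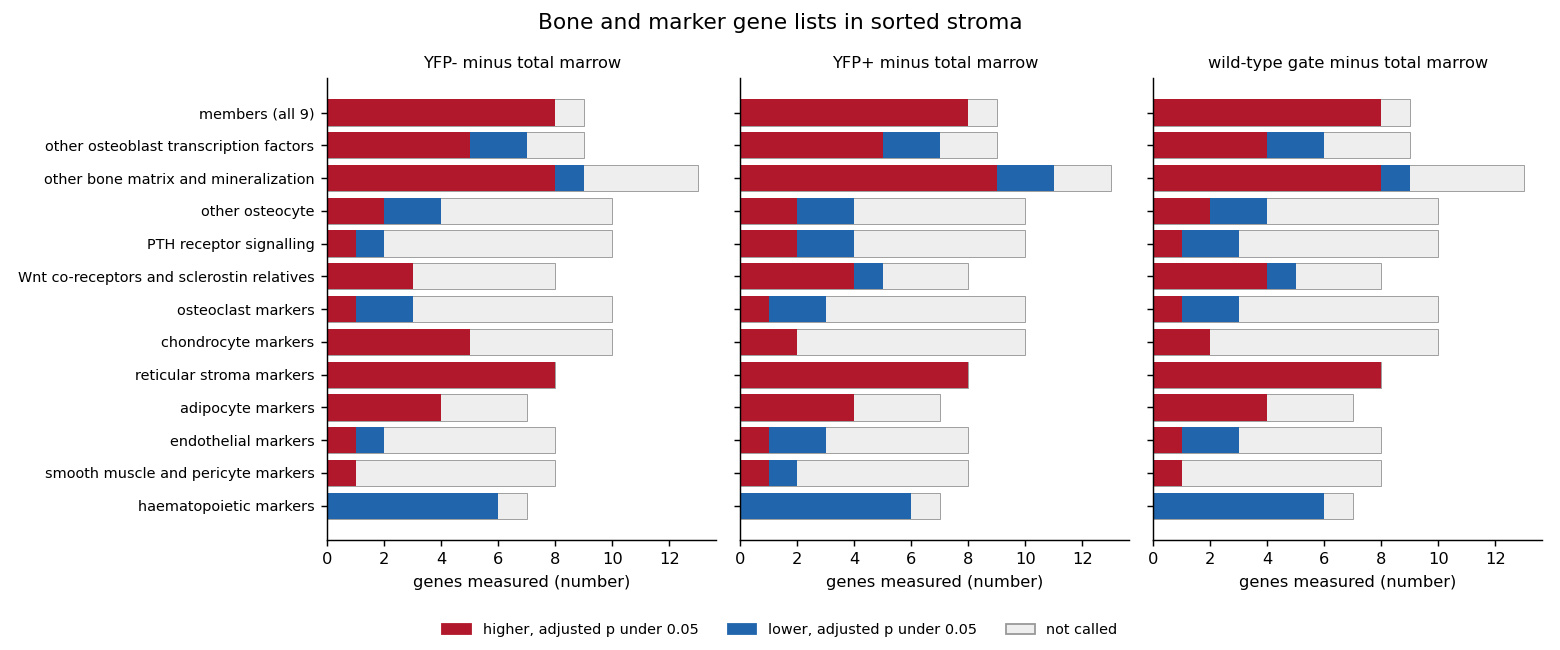
Number of measured genes (horizontal axis) called higher (red), lower (blue) or not called (grey) against total marrow, for the 9 genes and for each list, in the YFP-negative array, YFP-positive cells and wild-type cells. Of the 9 genes 8 are called higher in each panel, as are all 8 reticular markers, and the further osteocyte genes have 2 higher and 2 lower of 10 in each panel.

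YFP-positive cells were set against wild-type cells of the same gate. No gene was called: 0 of 9, where 0% of all 21789 rows were called in limma and the smallest adjusted p over all rows was 0.068. At an unadjusted p under 0.05 there were 6 of the 9 genes, against 14.9% of all rows. The 2 groups did not overlap for 5 of the 9 genes, against 21.8% of all rows. Phex and Sost lay wholly higher in YFP-positive cells, and Dlx5, Sp7 and Alpl wholly lower. After loess the groups overlapped for Dlx5, Sp7 and Alpl.

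Phex had the highest positive difference of the 9, at 8.97 ± 0.23 in YFP-positive arrays against 7.80 ± 0.06 in wild-type arrays (SD, n = 3 each). The difference was 1.18 with a 95% interval of 0.84 to 1.51, a fold change of 2.26, and an adjusted p of 0.081 in limma. It ranged from 1.06 to 1.46 over 16 alternative settings, with adjusted p from 0.063 to 0.25. Phex lies on the X chromosome. YFP-positive replicate 1, with low Xist, held it at 8.98, against 9.20 and 8.73 in the 2 other YFP-positive arrays. Without that array the difference was 1.17 (adjusted p = 0.064 in limma). The part of mouse sex in this difference was not tested.

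The difference for Alpl was larger in size, at -1.53 with a 95% interval of -2.92 to -0.14 (adjusted p = 0.32 in limma), and without YFP-positive replicate 1 it was -0.85. The other differences were smaller. They were -0.54 (interval -1.07 to -0.0044) for Dlx5, -0.44 (-0.86 to -0.02) for Pth1r, -0.34 (-0.64 to -0.03) for Sp7 and 0.45 (0.09 to 0.80) for Sost, with adjusted p of 0.33, 0.33, 0.31 and 0.29. Dlx6 (-0.08, interval -0.53 to 0.37), Ibsp (-0.05, -0.49 to 0.40) and Dmp1 (-0.18, -0.55 to 0.18) had intervals that include 0. These intervals leave room for differences in either direction. After loess or quantile normalization Dlx6 and Ibsp had small positive estimates.

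The YFP-negative array was set against the YFP-positive arrays on loess values. 1 of the 9 genes, Dmp1, was called higher (limma), where 2.62% of all rows were called higher and 1.36% lower. It stood at 4.82 in the YFP-negative array, against 3.75, 3.67 and 3.47 in YFP-positive arrays, a difference of 1.19 ± 0.22 (SE, adjusted p = 0.033). YFP-positive values are under the median of loess values, 4.53. As deposited, both groups lay under the median of the whole table and the difference was 0.26, so its size depends on the scaling and is not resolved. The call held in 9 of 15 alternatives. It was lost without YFP-positive replicate 2 (adjusted p = 0.051), wild-type replicate 3 (0.057), total marrow replicate 1 (0.073) or total marrow replicate 2 (0.073). With 1 array, the YFP-negative group has no spread of its own, and its spread was taken to be that of the other groups. What is particular to that array and what to YFP-negative cells cannot be told apart.

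Markers of other cell types moved in the same fit. The mean loess level over the 10 chondrocyte markers was 5.64 in the YFP-negative array, against 4.47 to 4.95 in the other sorted arrays. As deposited it was 4.57, within the 4.51 to 5.02 of the other sorted arrays. Chad was at 10.79 in the YFP-negative array after loess, against 3.97 to 7.14 in the other sorted arrays. Against YFP-positive cells the median loess change of the 10 was 0.61, with -0.42 for Col2a1, -0.23 for Matn3 and -2e-04 for Matn1. Acan, the aggrecan gene of cartilage, was called higher in the YFP-negative array (0.87 against YFP-positive, limma adjusted p = 0.028, and 0.92 against wild type, adjusted p = 0.025), and as deposited it was -0.0037 and 0.17. Its values were under the table's median in every array. The myeloid Mpo was called lower against YFP-positive cells (-3.33, adjusted p = 0.037). The part of such cells in the differences of the 9 genes was not tested.

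Among the other 8, Dlx6 and Ibsp were higher in estimate than in YFP-positive arrays after loess, and Phex and Sost were lower in estimate. Dlx6 was at 7.31, against 5.91, 6.01 and 6.64 in YFP-positive arrays (difference 1.13, adjusted p = 0.099 in limma), and without YFP-positive replicate 3 the difference was called (1.37, adjusted p = 0.032). Ibsp was at 12.50, against 11.92, 11.51 and 11.73 in YFP-positive arrays (0.78, adjusted p = 0.12). Phex was at 8.36, against 8.83, 9.10 and 8.83 in YFP-positive arrays (-0.56, adjusted p = 0.14), and Sost at 5.24, against 5.27, 5.47 and 5.62 in YFP-positive arrays (-0.21, adjusted p = 0.65). Dlx5, Sp7, Alpl and Pth1r had differences of -0.07 (interval -0.72 to 0.58), -0.06 (-0.53 to 0.42), 0.10 (-2.01 to 2.20) and 0.14 (-0.47 to 0.76). At an unadjusted p under 0.05 there were 4 of 9 genes, against 21.9% of all rows.

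Against wild-type cells 0 of 9 genes were called in the YFP-negative array (limma, loess values), where 3.0% of all rows were called higher and 1.57% lower. At an unadjusted p under 0.05 there were 4 of 9, against 22.3% of all rows. Phex was nearest, at 8.36, against 7.61, 7.44 and 7.46 in wild-type arrays (difference 0.86, interval 0.414 to 1.298, adjusted p = 0.051). Ibsp was 1.02 higher in estimate (interval 0.46 to 1.59, adjusted p = 0.061), Dmp1 0.88 (0.38 to 1.39, adjusted p = 0.067) and Dlx6 1.21 (0.46 to 1.97, adjusted p = 0.081). Phex was called without YFP-positive replicate 2 (adjusted p = 0.045) or 3 (0.043), and Dlx6 without YFP-positive replicate 3 (0.031), arrays that enter this comparison through the normalization and the shared spread. Pth1r (-0.07), Sp7 (-0.19), Dlx5 (-0.33), Alpl (-1.18) and Sost (0.29) had intervals that include 0. On loess values Phex stood at 8.36 in the YFP-negative array, against a mean of 8.92 in YFP-positive cells and one of 7.50 in wild-type cells. As deposited, the differences of the YFP-negative array from wild type were -0.46 for Phex and -0.22 for Dlx6, so their direction depends on the scaling.

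Some further bone genes were called between the YFP-negative array and the other sorted arrays on loess values. Omd, which encodes the matrix proteoglycan osteomodulin, was at 7.80 after loess, against 5.50, 5.55 and 5.90 in YFP-positive arrays (2.15, limma adjusted p = 0.034) and 5.82, 5.65 and 4.80 in wild-type arrays (2.37, adjusted p = 0.026). Ramp2 was 1.21 and 1.13 higher and Nfatc1 1.38 and 1.24 higher than in YFP-positive and wild-type cells. Against YFP-positive cells, Serpinh1 fell by 1.64 and Col1a2 fell by 0.81. Against wild-type cells, Serpinh1 fell by 1.73 and Col1a2 fell by 0.86. In the further matrix list this made 1 gene higher and 2 lower of 13 in each comparison. None of the 10 further osteocyte genes was called in either. As deposited, Omd was 0.86 (adjusted p = 0.082) against YFP-positive and 1.01 (adjusted p = 0.0499) against wild type. Ramp2 was then -0.0466 and -0.30, and Nfatc1 was 0.0893 and -0.15, none of them called. Of 15 alternatives, the call against YFP-positive cells held in 13 for Nfatc1, 12 for Serpinh1, 8 for Omd, 7 for Col1a2 and 6 for Ramp2. Against wild-type cells it held in 8 for Nfatc1, 12 for Serpinh1, 10 for Omd, 7 for Col1a2 and 5 for Ramp2. Leaving out total marrow replicate 1 or 2 ended the calls of Omd, Ramp2, Serpinh1 and Col1a2 against YFP-positive, and those of Omd, Ramp2, Nfatc1 and Col1a2 against wild type. Leaving out wild-type replicate 1 or 2 ended the calls of Ramp2 and Col1a2 in both comparisons, and other single arrays ended some of them.

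**Figure D4:**
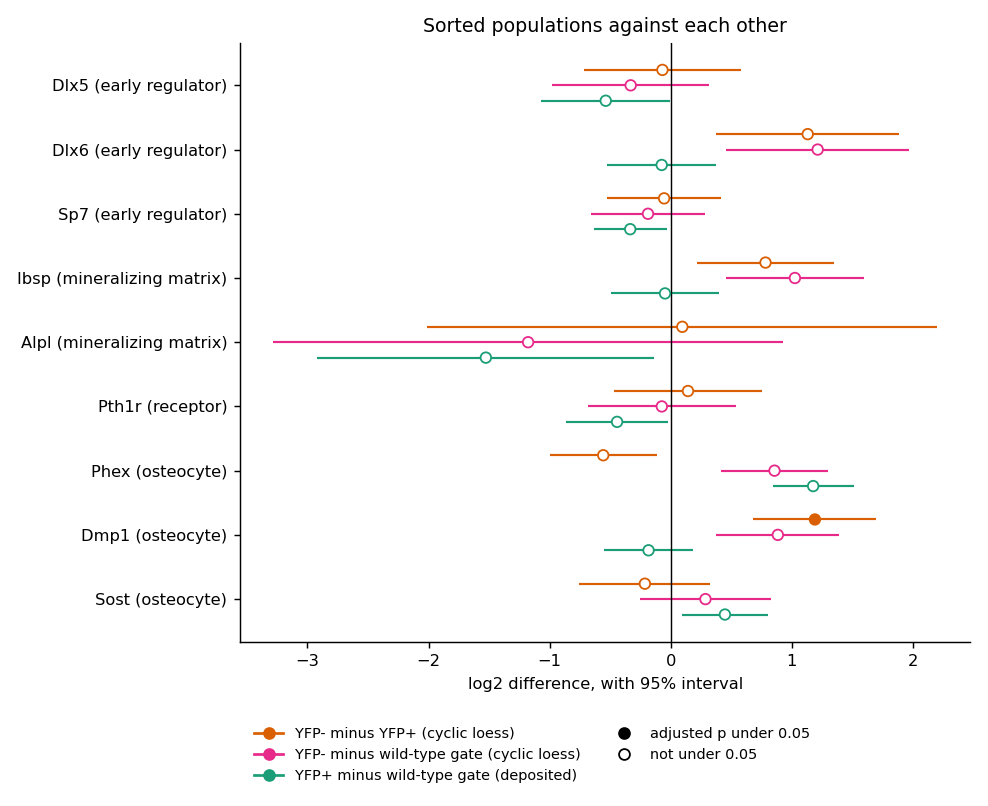
Differences between the sorted groups in log2 units (horizontal axis) with 95% intervals: YFP-negative minus YFP-positive and YFP-negative minus wild type (cyclic loess values), and YFP-positive minus wild type (deposited values). The only filled point (adjusted p under 0.05) is Dmp1 in YFP-negative minus YFP-positive, at 1.19. The intervals of Alpl are the widest.

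Across the 9 arrays, the profile of a gene was compared with those of others as the root mean square difference of loess values centred on each gene's mean. This is a description over arrays that share the step between sorted cells and total marrow. Among the 9 genes, Sp7 and Pth1r were the nearest pair, at 0.22 log2 units, and Dmp1 and Sost lay 0.50 apart. Dlx5 and Dlx6, though neighbours, lay 1.69 apart, and Ibsp and Dmp1 3.03.

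Over all rows, the nearest profile to both Sp7 and Pth1r was that of Id4, a helix-loop-helix inhibitor (0.14 and 0.17). Ibsp was nearest to Sfrp4 (0.14), Chrdl1 (0.21) and Kitl (0.23), genes for a Wnt modulator, a BMP antagonist and stem cell factor. Dlx5 was nearest to Fhl2 (0.23) and Dlx6 to Mpv17 (0.16). Alpl and Phex had no close match: the nearest were Adamts9 at 0.42 and Egfr at 0.44. Dmp1 was nearest to Dynlrb1 (0.13) and Sost to Mir665 (0.09), 2 profiles that vary little over the arrays.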

How the data were processed

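The authors summarised the arrays with RMA in Affymetrix Expression Console 1.3.1 and deposited log2 values, per the submitters' processing notes. RNA was amplified with a NuGEN Ovation Pico kit, per the labels. The genome build was not given in the sources used here. Of 35556 rows, 21789 with exactly 1 gene symbol were tested, and 1621 with several and 12146 with none were left out.

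All 9 arrays entered a limma fit of the deposited values and another of the loess values (limma 3.58.1, R 4.3.3). Each had 1 mean per group, eBayes, two-sided tests and 5 residual degrees of freedom. The prior degrees of freedom were 2.50 on deposited and 2.27 on loess values. Benjamini-Hochberg adjustment covered the 21789 rows. Nothing in the labels says that replicates came from different animals, so p-values measure the spread between arrays, which may be technical, and the number of arrays limits the precision. Comparisons with the YFP-negative array used cyclic loess values (limma normalizeCyclicLoess), since that array lies lower as deposited. The fit was tested on simulated data.

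The 9 genes, the lists (129 genes, 117 measured) and the scale for each comparison were chosen with earlier results of these data known. Named are the 9 genes, Col1a1, up to 4 called genes of each list with the highest change, genes against the rest of a list, and the 3 nearest profiles. Msx1, Lrp5, Pth, Ifitm5, Chad, Mepe, Pdpn, Fam20c, Dkk1, Irx5, Dspp, the other Dlx genes, Lyz2, Xist and Kdm5d were added after their values were seen. So were S100a8, Eif2s3y, Uty, Col2a1, Matn1 and Matn3. A gene with several rows is given by its brightest row. Alternatives were other normalizations, a filter on dim rows, array weights, trend and robust moderation, a replicate block and leaving out arrays. Figures used Python 3.11.15 and matplotlib 3.10.9.

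Same-numbered arrays of YFP-positive and wild-type cells did not deviate together (correlations of -0.06, -0.03 and -0.01 across genes), so replicate numbers were not used as pairs.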

Additional observations from a re-analysis of the deposited data

How the results depend on the processing

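Against total marrow, calls among the 9 genes ranged from 6 to 9 in YFP-positive cells, 7 to 8 in wild-type cells (16 alternatives each) and 7 to 8 in the YFP-negative array (15 alternatives). The share of all rows called against total marrow ranged from 16.7% to 44.5%, 15.6% to 37.4% and 17.8% to 71.9% in these groups. YFP-positive against wild type gave 0 under all 16, where 0% to 0.119% of all rows were called.

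Calls against the YFP-negative array depended on scaling. So did the share of all rows called. Over 15 alternatives it ranged from 0.0229% to 75.8% against YFP-positive and from 0.0275% to 75.1% against wild type. The counts below move with that share. Against YFP-positive, 1 gene was called on loess values, 5 as deposited (all lower, with 75.8% of all rows called) and 2 after median centring, and leaving out an array gave 0 to 2. Against wild type, 0 were called on loess values, 5 as deposited (75.1% of all rows), 1 after quantile normalization, 2 after median centring, 4 with array weights and 1 with trend and robust moderation, and leaving out an array gave 0 to 2.

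Of the list genes named between the YFP-negative array and sorted cells, none was called under the replicate block (adjusted p of 0.071 or more). Replicate numbers did not pair the arrays, and not every array correlated best with its own number. With the number as a block, calls were 7, 8 and 8 against total marrow (YFP-positive, wild type, YFP-negative). The share of all rows called there was 24.8%, 21.6% and 21.9%. For YFP-positive against wild type 0 were called, with 0% of all rows. For YFP-negative against YFP-positive and against wild type 0 were called, where only 0.0229% and 0.0275% of all rows were. With shares that low, a count of 0 is not particular to these genes. Under the block, Sost in YFP-positive cells against total marrow was not called (0.62, adjusted p = 0.055), nor Dmp1 in YFP-negative against YFP-positive (1.07, adjusted p = 0.13), and Pth1r was at 0.0355 for YFP-negative against wild type.

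Some estimates changed sign. For YFP-positive against wild type these were Dlx6 at 0.0822 (loess), 0.17 (quantile) and 0.034 (without YFP-positive replicate 1), and Ibsp at 0.24 (loess), 0.0443 (quantile), and 0.0446, 0.0288 and 0.0343 without YFP-positive replicates 2 or 3 or wild-type replicate 2. For YFP-negative against YFP-positive they were, as deposited, Dlx6 -0.14, Alpl -0.92, Pth1r -0.97, Ramp2 -0.0466 and Acan -0.0037, then Pth1r -0.0503 (quantile) and Dlx5 0.13 (median centring) and 0.0964 (without YFP-positive replicate 2). Leaving out an array gave -0.66 to 0.65 for Alpl and -0.0126 to 0.35 for Pth1r. For YFP-negative against wild type they were, as deposited, Dlx6 -0.22, Phex -0.46, Sost -1.04, Nfatc1 -0.15 and Ramp2 -0.30. For YFP-negative against total marrow they were, as deposited, Sost -0.80, Dlx3 -0.12, Col1a1 -0.22, Slc20a2 -0.14, Tnfrsf11b -0.0599, Lrp5 -0.28, Col9a1 -0.25 and Eng -0.17. The causes were not tested.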
